A study of Cucumis sativus with 33 samples.

Results

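The genes described here stood far higher in the open cucumber corolla than in the earlier groups sampled. Petals together form the corolla, and anthesis is the time at which it opens. The study profiled corollas of female flowers of the inbred line 6457 by RNA-seq in 2 courses of development. In the first, plants had ample fertilizer and water and kept a single fruit, and their flowers are labelled as having super ovaries. In the second, plants were short of fertilizer and water and set fruit at other positions, and their flowers are labelled as having normal ovaries. Nutrient supply and fruit load therefore differed together between the courses and cannot be told apart. Groups are named by ovary type and by the day after labeling of the visible ovary. The super course comprised S1 (green bud), S3, S4 and S5 (green yellow bud), S7 and S8 (yellow bud) and S9 (open flower). The normal course comprised N1 (green bud), N3 (green yellow bud), N4 (yellow bud) and N5 (open flower). There were 3 libraries in every one of the 11 groups, each from 5 pooled corollas of bagged, unpollinated flowers. Super flowers opened on days 8 to 9 and normal flowers on days 4 to 5, so S8 and N4 were collected on the first of those days. The sources do not say whether any corolla of the S8 or N4 pools had opened. Below, flowering means S9 and N5. The words bud and before flowering mean the groups collected earlier, S8 and N4 included.

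The genes were chosen by their measured values. RPM expresses the reads of a gene relative to all reads of its library, and the rule used the mean RPM of the 3 libraries of each group. A gene was kept if both S9 and N5 reached 10 RPM, if each earlier super group stood at no more than S9 divided by 4, and if each earlier normal group stood at no more than N5 divided by 8. Of 23248 genes in the table, 60 met the rule. The super limits alone were met by 175 genes and the normal limits alone by 133, so the 60 made up 34.3% of the super list and 45.1% of the normal list. A further 47 genes met every limit except that on S8. All contrasts of S9 or N5 with an earlier group of the same course are thus fixed by the choice and are given as a description, without a test. All 60 genes passed the filter for testing, a group mean reaching 1 RPM somewhere in the 11 groups, which 18905 genes passed.

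Petals open mainly by expansion of cells that have already formed, with water uptake, loosening of the cell wall and mobilisation of sugars. Open petals also make pigments and volatile compounds that attract pollinators, and they later enter senescence. Jasmonate, auxin, gibberellin and ethylene signalling are known to time these steps in other flowering plants. The table gives identifiers with no gene names, and none of them matched the 23999 genes of the RefSeq table for cucumber. No function is therefore assigned to any gene here, no pathway list could be formed, and the corolla label could not be set beside petal marker genes. Named below are the genes with the largest values for each quantity, at most 2 in each direction.

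Library depth, recovered from the steps between low values, ran from 16858634 to 24643164 reads. Replicates correlated across tested genes at 0.989 or above on log2(RPM + 1), except in S7, where replicates 1 and 3 correlated at 0.965. RPM is not corrected for gene length, so levels of different genes are compared only as shares of reads. In a corolla, more RNA per cell and more cells of a type that holds the RNA cannot be told apart.

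Before flowering most of the 60 genes were far below their flowering level, and at flowering their median stood at nearly the same height in both courses. The median over the 60 genes was 43.6 RPM in S9 and 43.7 RPM in N5. Among the earlier groups it lay between 0.95 RPM (S4) and 3.46 RPM (S8) in the super course and between 1.12 RPM (N4) and 1.35 RPM (N1) in the normal course. Together the 60 genes took 6661, 8578 and 8737 RPM in the S9 libraries, against 6540, 6109 and 6570 RPM in the N5 libraries. The sum in super buds was lowest in S1, with a mean of 268 RPM, and highest in S8. It was 810, 844 and 816 RPM in the S8 libraries, and 245, 222 and 256 RPM in the N4 libraries. The S9 libraries thus held 0.666% to 0.874% of their reads in these genes, and the N5 libraries 0.611% to 0.657%.

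**Figure D1:**
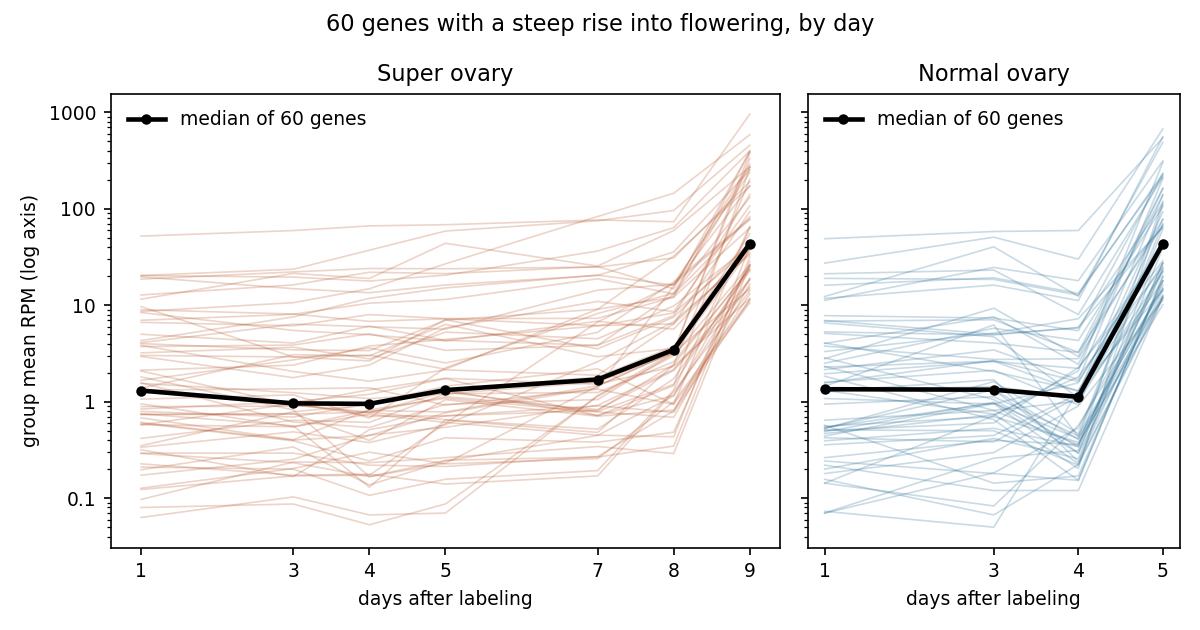
Group mean RPM of each of the 60 genes (thin lines) and their median (thick line with points) against days after labeling, on a log axis, for super ovaries and normal ovaries. The median stays between 0.95 and 3.46 RPM on days 1 to 8 of the super course and stands at 43.6 RPM in S9 and 43.7 RPM in N5.

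Most of the genes were not silent in the bud. In 25 of the 60 every earlier group had a mean of 1 RPM or more, and in 7 every earlier group had a mean below 1 RPM. The name of an on switch at flowering therefore fits few of them literally, and they are called steep risers below. In S8, 11 of the 60 had a mean below 1 RPM, against 20 in S7 and 27 in N4. A gene at the lowest value of the table in all 3 libraries of a group was rare, with 1 in S4 and 1 in N3. By the rule the ratio of flowering to the highest earlier mean could not be under 4 in the super course or under 8 in the normal course. It ran from 4.04 to 181, with a median of 10.4, in the super course and from 8.87 to 179, with a median of 15.5, in the normal course.

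The largest share of reads at flowering went to Csa6G094720 and Csa1G008530. In Csa6G094720 the S9 libraries had 787, 1077 and 1013 RPM, against 526, 540 and 571 RPM in the N5 libraries. It was never low, since its earlier group means lay between 52.1 (S1) and 76.6 RPM (S7) in the super course and between 49 (N1) and 59.6 RPM (N4) in the normal course. It rose in the buds by less than 2-fold. The log2 difference was 0.49 in S8 against S1 (SE 0.08, adjusted p 3e-06 by limma). In N4 against N1 it was 0.28 (SE 0.08, adjusted p 0.0024 by limma). Its bud level was far above that of most of the 60. Csa1G008530 had 485, 431 and 456 RPM in S9, against 649, 695 and 680 RPM in N5. It climbed through the super buds, with group means of 20.4, 23.6, 37.2, 58.8, 75.2 and 96.1 RPM from S1 to S8. In the normal buds its means were 27.3 RPM in N1, 50.9 RPM in N3 and 30.1 RPM in N4, with no such climb. The 5 genes with the highest means in a group took 35% of the summed RPM of the 60 in S9 and 40.3% in N5.

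The steepest steps belonged to Csa2G381840 and Csa3G760520, taking the smaller of the ratios of the 2 courses. Csa2G381840 had 180, 352 and 268 RPM in S9, after 0.45 to 1.68 RPM in every S7 and S8 library. In the normal course it had 130, 85.7 and 112 RPM in N5, after 0.16, 0.25 and 0.20 RPM in N4. Its N4 values were the lowest of the normal course, under the 0.70 to 1.84 RPM of the N1 libraries. Csa3G760520 had 21.7, 35.4 and 38.1 RPM in S9, against 20.2, 20 and 19.8 RPM in N5. All 27 libraries collected before flowering had between 0.09 and 0.45 RPM of it, which is a few reads each. S9 stood 91.5 times above the highest earlier super mean and N5 82.3 times above the highest earlier normal mean. The gene that follows it in the table, Csa3G760510, is also among the 60, the only such pair. It had 20.9, 30.2 and 34.7 RPM in S9, against 19.8, 16.8 and 17.5 RPM in N5. Whether these are near-identical copies among which reads could be split is not known here, so their separate levels are uncertain.

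**Figure D2:**
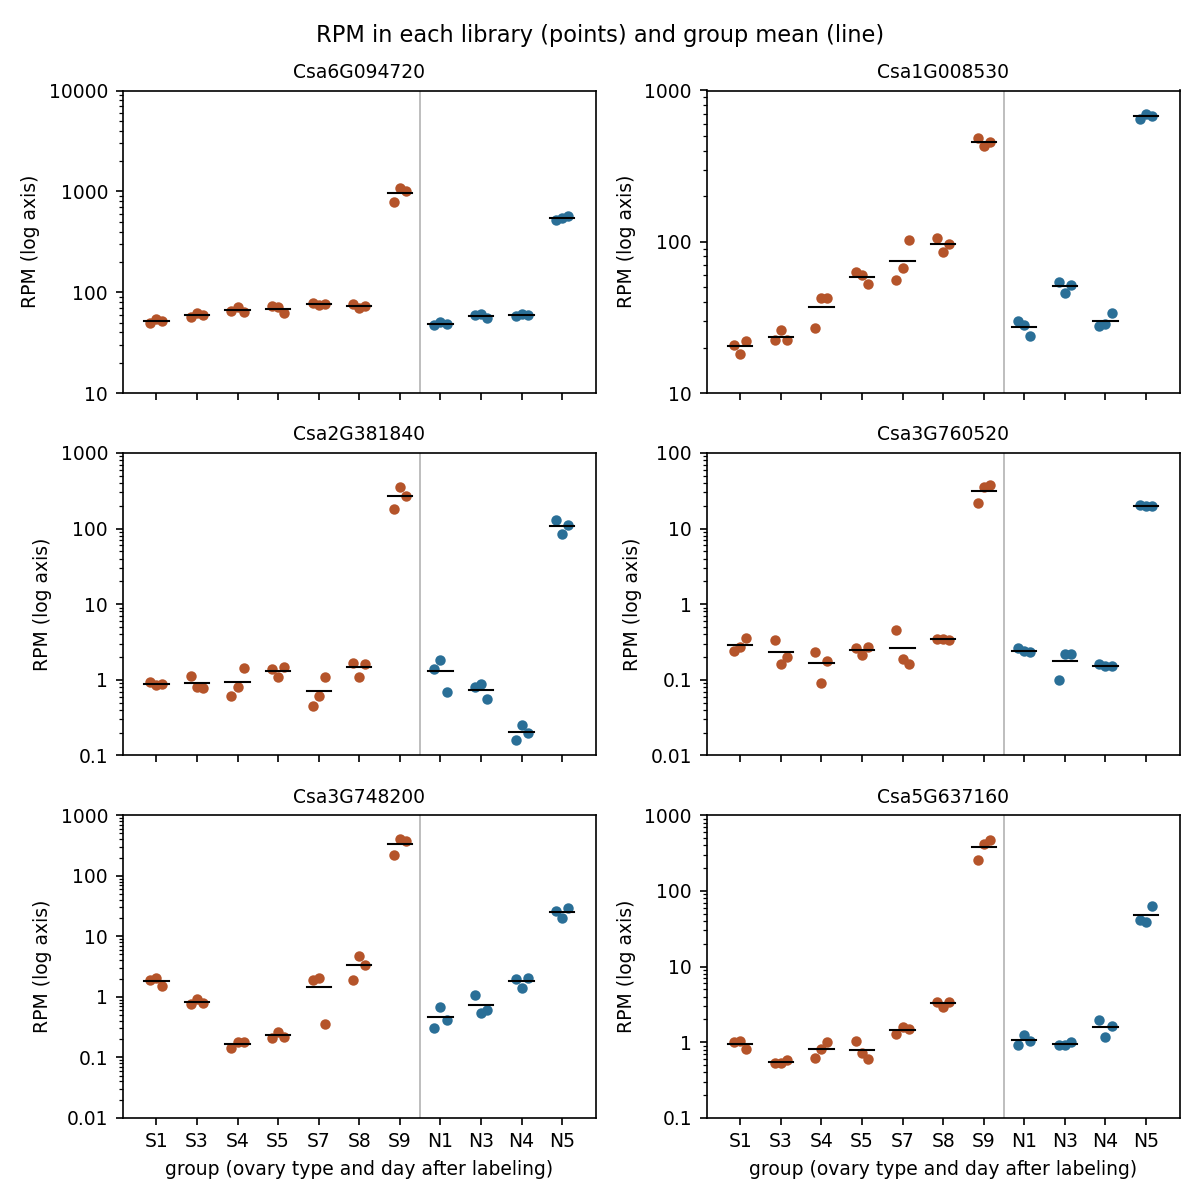
RPM in each library (points) and the group mean (line) on a log axis, by ovary type and day after labeling, for the pair with the largest share of reads at flowering, the pair with the steepest steps and the pair with the largest excess in S9 over N5. Csa6G094720 stands at 47 RPM or more in every bud library, while Csa3G760520 stays at 0.45 RPM or below in all of them.

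The limits of the rule were sharp only for some genes. On the super ratio, Csa3G101810 was just inside at 4.04, and the nearest gene outside had 3.81. On the normal ratio the lowest value inside was 8.87 and the highest outside was 7.97. On the level at flowering, the lowest means inside were 10.6 RPM in S9 and 10.1 RPM in N5, and the nearest outside were 9.89 RPM in S9 and 9.88 RPM in N5.

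The first comparison whose direction the rule did not fix was that of the open flowers, S9 against N5. Both means still entered the rule, through a common floor and through unequal limits on the earlier groups of each course. Calls and shares in this comparison are therefore shaped in part by the choice of genes. They are read only as a description of the 60. More of the steep risers were called higher in super flowers than lower when both size and test were required. By limma across all tested genes, 11 of the 60 (18.3%) were called higher in S9 and 1 (1.67%) lower, at an adjusted p under 0.05 and at least 2-fold. Among all genes tested, 2.93% were called higher and 2.25% lower. At an unadjusted p under 0.05 by limma, with no limit on size, the members were more evenly split, with 20 higher and 14 lower, beside 19% and 30.4% of all genes. The median difference of the 60 was small, 0.08 on the log2(RPM + 1) scale, against -0.07 over all tested genes, and 34 of the 60 differences were above 0. The genes called were a minority of the 60, with a change of at least 4-fold in 3.

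The largest differences were those of Csa3G748200 and Csa5G637160. Csa3G748200 had 219, 408 and 372 RPM in S9, against 26, 20 and 29.3 RPM in N5. The log2 difference was 3.65 (SE 0.25, adjusted p 1.4e-11 by limma), and every S9 library was higher than every N5 library. Csa5G637160 had 257, 411 and 471 RPM in S9, against 40.8, 38.3 and 62.6 RPM in N5. Its log2 difference was 2.97 (SE 0.17, adjusted p 4.8e-13 by limma), again with no overlap between the groups. Csa3G150150 also differed by 4-fold or more, with 317, 432 and 418 RPM in S9, against 104, 92.1 and 82.6 RPM in N5 (log2 difference 2.05, SE 0.14, adjusted p 1.6e-11 by limma). It is named because it completes the count of 3 genes that differed this much, and it recurs in the bud comparisons. The single gene called lower was Csa4G614170, with 43.9, 39.2 and 40.6 RPM in S9, against 101, 98.5 and 121 RPM in N5. Its log2 difference was -1.35 (SE 0.16, adjusted p 1.6e-07 by limma).

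**Figure D3:**
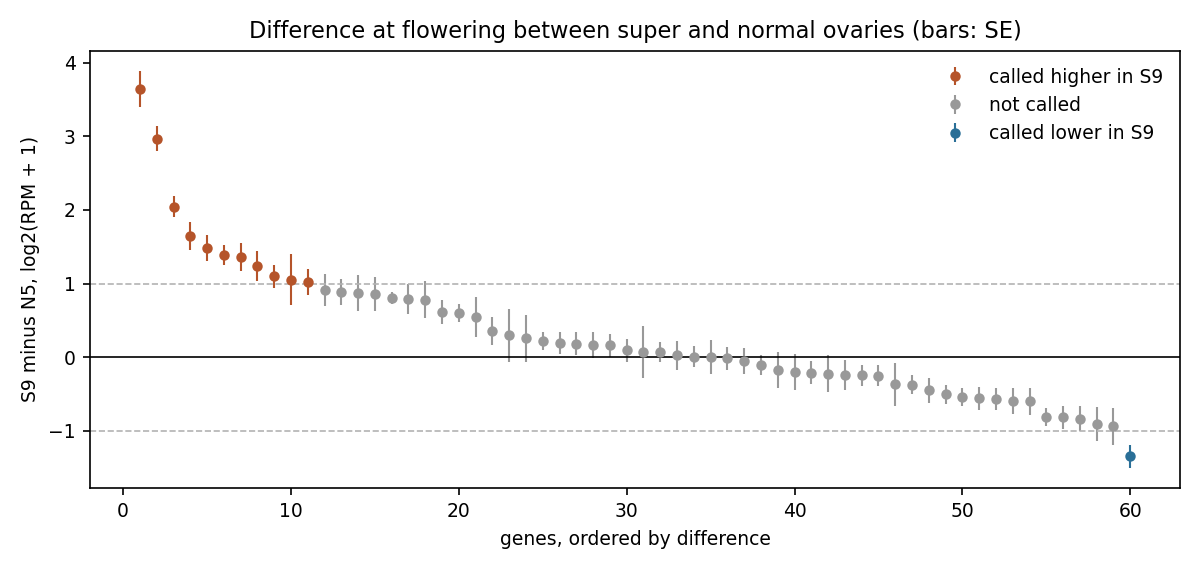
Difference between S9 and N5 on the log2(RPM + 1) scale for each of the 60 genes, ordered from most positive to most negative, with the SE of the limma fit as bars and dashed lines at 2-fold. The 11 genes called higher in S9 reach 3.65, and the 1 gene called lower stands at -1.35.

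All S9 libraries lay above all N5 libraries in 17 of the 60 genes, and all lay below in 11. Among all genes tested, the libraries of the groups were likewise apart in 19.7% with S9 above and in 30.5% with S9 below. In S9, replicate 1 held the lowest of the 3 values in 45 of the 60 genes. Without it, 14 genes were called higher and 1 lower, beside 3.38% and 2.7% of all genes. In N5, replicate 2 held the lowest value in 35 of the 60, and without it 10 were called higher and 2 lower, beside 2.91% and 2.12% of all genes. How often these replicates held the lowest value over all genes was not computed. Whether these shifts are particular to the 60 was therefore not tested. The steep risers were also more variable between replicates than other expressed genes. Their median coefficient of variation was 20.9% in S9 and 13.8% in N5, against 8.09% in S9 and 6.6% in N5 over the 11027 genes with at least 10 RPM in both groups. The part of this spread in the differences at flowering was not tested.

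The second question was whether the steep risers already moved in the groups collected before S9 and N5. The rule caps their earlier levels but does not order them. Genes with a higher level in S8 relative to S9 were left out, and a further 47 met every limit except that on S8. All earlier groups entered the rule, so calls among them, here and below, are shaped in part by the choice of genes. Set beside all genes, they are read only as a description of the 60. In the super course a part of the 60 had risen by day 8. Of the 60, 24 (40%) were called higher in S8 than in S1, and 0 were called lower. Among all genes tested, 14.5% were called higher and 33.1% lower in S8. On the log2(RPM + 1) scale a gene with a mean below 1 RPM in S1 cannot fall by 2-fold. This held for 27 of the 60, so the 0 lower calls by limma were in part fixed by their low bud levels. The median log2 difference of the 60 was 0.84, against -0.40 over all genes. After each library was rescaled by the median of its gene ratios, which brings the median gene to 0.03, 36 of the 60 were called higher and 0 lower, beside 22.5% and 24.2% of all genes. By edgeR on recovered reads 46 were called higher and 0 lower, beside 25.6% and 28.3% of all genes. At an unadjusted p under 0.05 by limma, with no limit on size, 44 were higher and 2 lower, beside 30.7% and 54.9%. With a pseudocount of 5 in place of 1, which damps low genes, 12 were called higher and 0 lower, beside 10.8% and 24.4%.

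The largest early rises in the super course were those of Csa6G151640 and Csa3G101810. Csa6G151640 had 16.7, 14.7 and 18.9 RPM in S8, against 0.14, 0.13 and 0.10 RPM in S1 (log2 difference 3.98, SE 0.13, adjusted p 9e-21 by limma). Its level in S8 was still far below the 297, 190 and 226 RPM of S9. Csa3G101810 had 141, 144 and 150 RPM in S8, against 9.81, 8.64 and 7.43 RPM in S1 (log2 difference 3.93, SE 0.32, adjusted p 7.7e-12 by limma). With 504, 649 and 604 RPM in S9, it is the gene nearest to the super limit of the rule.

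S8 was the highest of the earlier super groups in 42 of the 60 genes, while it was the highest in 23.2% of all genes tested. S7 was the highest in 8, S5 in 4, S4 in 2 and S1 in 4. After rescaling, S8 was the highest in 49 of the 60 and in 37.3% of all genes. As a share of its S9 mean, a gene stood at a median of 4% in S5, 5.15% in S7 and 8.63% in S8. The S8 share ran from 0.55% to 24.8%, with 25 genes at 10% or above and 16 below 5%.

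**Figure D4:**
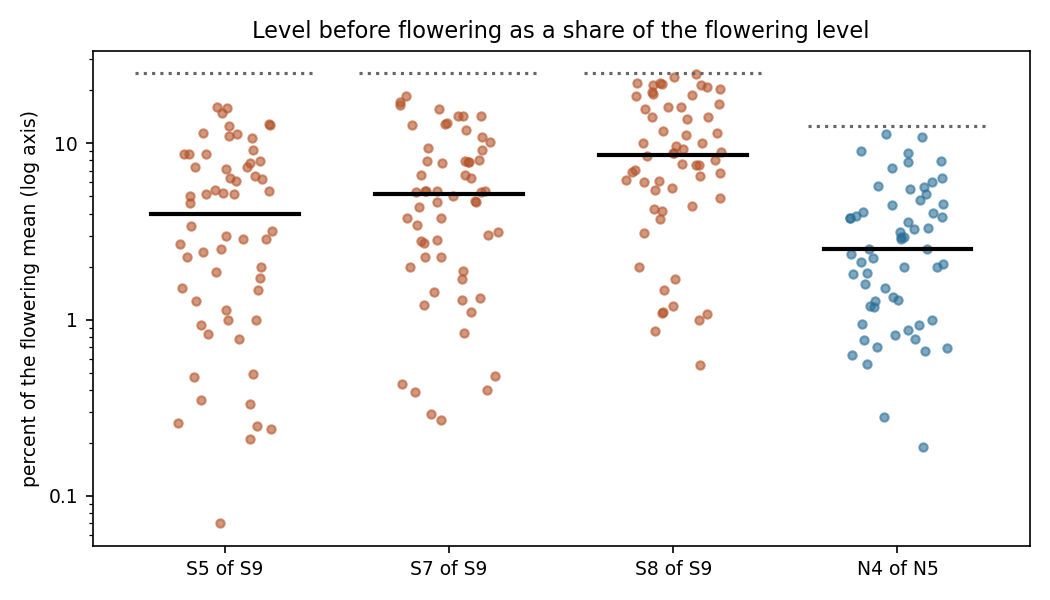
Level before flowering as a percentage of the flowering mean of the same course for each of the 60 genes (points), on a log axis, with the median (solid line) and the cap set by the rule (dotted line). The medians are 4% in S5, 5.15% in S7 and 8.63% in S8 of the S9 mean and 2.52% in N4 of the N5 mean.

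Part of the rise fell on the last day before flowering. In S8 against S7, 10 of the 60 (16.7%) were called higher and 0 lower, beside 5.58% and 9.13% of all genes. A lower call by limma was out of reach for the 20 with a mean below 1 RPM in S7. By the unadjusted limma p alone 40 were higher and 3 lower, beside 19.9% and 48.9%. The count rests on a group with divergent replicates, since without S7 replicate 1 18 were called higher and 0 lower, beside 6.09% and 11.4% of all genes. By edgeR on recovered reads 34 were called higher and 1 lower, beside 10% and 9.04%. After rescaling 24 were called higher and 0 lower, beside 8.45% and 4.78%. Csa2G167190 had 18.4, 14.8 and 14.4 RPM in S8, against 0.85, 1.59 and 1.72 RPM in S7 (log2 difference 2.83, SE 0.17, adjusted p 1.6e-13 by limma). It then stood at 209, 355 and 306 RPM in S9. Csa3G731130 had 18.5, 50.1 and 28.6 RPM in S8, against 15, 10.3 and 2.03 RPM in S7 (log2 difference 1.92, SE 0.36, adjusted p 3.6e-05 by limma). Its replicates were far apart in both groups, though the groups did not overlap.

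A smaller number had moved by day 7. In S7 against S5, 6 of the 60 (10%) were called higher and 0 lower, beside 3.25% and 8.64% of all genes. A lower call by limma was out of reach for the 23 with a mean below 1 RPM in S5. By the unadjusted limma p alone 19 were higher and 6 lower, beside 18.7% and 46.2%. Without S7 replicate 3 the calls were 9 higher and 1 lower, beside 4.46% and 12.4%. By edgeR they were 15 higher and 1 lower, beside 7.41% and 8.56%. Csa6G151640 again led, with 7.17, 6.46 and 6.46 RPM in S7, against 0.72, 0.36 and 0.71 RPM in S5. The log2 difference was 2.28 (SE 0.13, adjusted p 1.9e-13 by limma). Csa1G033050 had 7.06, 10 and 7.56 RPM in S7, against 2.17, 3.97 and 0.60 RPM in S5. The log2 difference was 1.64 (SE 0.34, adjusted p 0.00019 by limma). All 6 genes were among the 24 called higher in S8 against S1, of which they made up 6 of 24. The same overlap over all genes was not computed.

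In the normal course no such common rise was seen in the yellow bud. In N4 against N1, 3 of the 60 (5%) were called higher and 5 (8.33%) lower, beside 8.93% and 32.9% of all genes. By limma a lower call was out of reach for the 26 with a mean below 1 RPM in N1. A higher call was out of reach for the 27 below 1 RPM in N4. The median log2 difference of the 60 was -0.12, against -0.49 over all genes. The direction of the balance turned with the scaling, since 7 were called higher and 3 lower after rescaling, beside 17.6% and 19.6% of all genes. By edgeR 14 were called higher and 8 lower, beside 19.4% and 25.2%. N4 was the lowest of the earlier normal groups in 31 of the 60 as deposited and in 19 after rescaling, and in 61.3% and 41.7% of all genes. N3 was the highest earlier normal group in 29 of the 60, against 21% of all genes. N1 was the highest in 16 and N4 in 15, against 55.5% and 23.5% of all genes.

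Csa6G151640 was the clearest of the normal early risers, with 1.73, 1.91 and 2.63 RPM in N4, against 0.16, 0.15 and 0.12 RPM in N1 (log2 difference 1.42, SE 0.13, adjusted p 4.5e-11 by limma). Csa3G151480 had 1.83, 2.97 and 1.98 RPM in N4, against 0.31, 0.97 and 0.23 RPM in N1 (log2 difference 1.13, SE 0.27, adjusted p 0.00046 by limma). Without N4 replicate 2 that difference was 0.98, under 2-fold. In the other direction Csa3G150150 had 0.97, 0.86 and 1.47 RPM in N4, against 5.91, 6.16 and 7.63 RPM in N1 (log2 difference -1.85, SE 0.14, adjusted p 1.5e-12 by limma). Csa1G033050 had 0.27, 0.40 and 0.35 RPM in N4, against 2.85, 2.09 and 3.61 RPM in N1 (log2 difference -1.51, SE 0.34, adjusted p 0.00026 by limma). Csa1G033050 thus fell before flowering in the normal course and had risen by day 7 in the super course. The 3 genes called higher in N4 were all among the 24 called higher in S8 against S1, and 3 of the 5 called lower were among those 24 too. Those 24 made up 40% of the 60. The overlap over all genes was not computed, so no link between the courses is read from these counts. Whether the rise before flowering differs between the courses was not tested, because the rule caps N4 and S8 at different shares of the flowering level. For the same reason the shares of the flowering mean, a median of 8.63% in S8 and 2.52% in N4, are only set side by side.

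**Figure D5:**
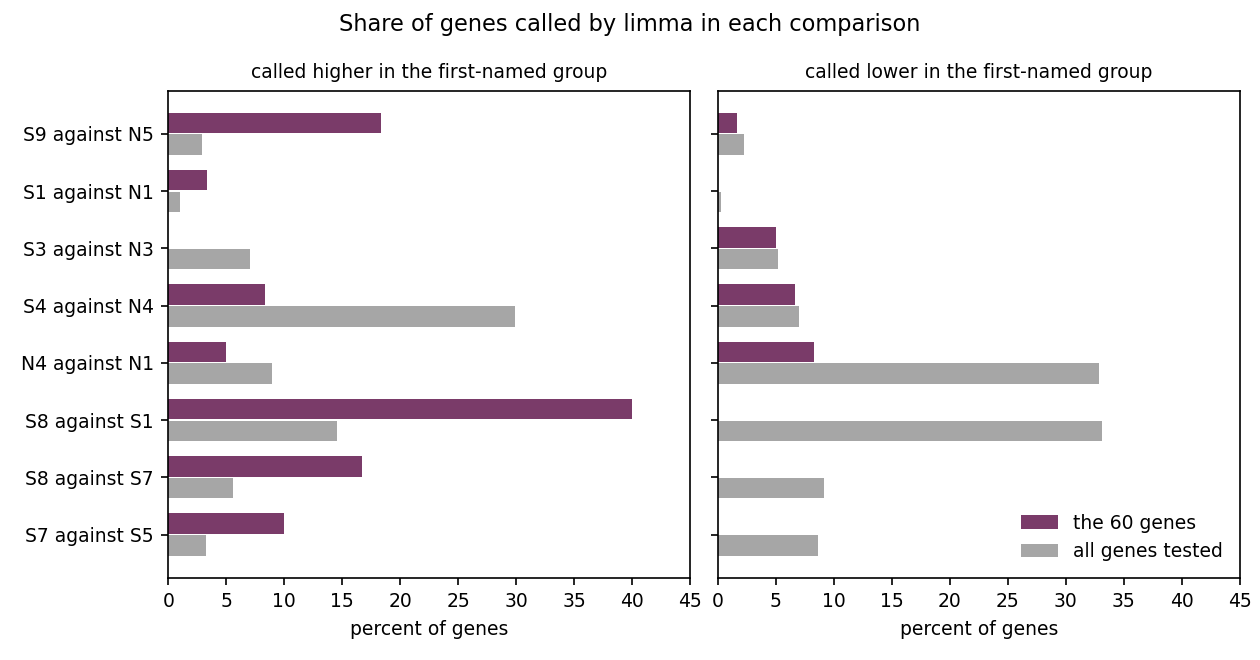
Percentage of genes called by limma (adjusted p under 0.05 and at least 2-fold) among the 60 genes and among all 18905 genes tested, in 8 comparisons, separately for genes higher and lower in the first-named group. The 60 genes reach 40% higher and 0 lower in S8 against S1, and 5% higher and 8.33% lower in N4 against N1.

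Between buds of the same day the ovary types were compared last. The rule caps these super groups at S9 divided by 4 and these normal groups at N5 divided by 8. Calls between them are therefore shaped in part by the choice of genes and are read only as a description of the 60. On day 1 the steep risers hardly differed, with 2 of the 60 (3.33%) called higher in S1 than in N1 and 0 lower, beside 0.973% and 0.27% of all genes. By limma a lower call was out of reach for the 26 with a mean below 1 RPM in N1. A higher call was out of reach for the 27 below 1 RPM in S1. By the unadjusted limma p alone 6 were higher and 6 lower, beside 9.9% and 11.5%, and edgeR called 2 higher and 1 lower, beside 1.5% and 0.46%. Csa1G001360 had 12.1, 9.27 and 7.69 RPM in S1, against 0.88, 3.40 and 0.41 RPM in N1 (log2 difference 2.22, SE 0.35, adjusted p 0.00011 by limma). Csa2G418890 had 10.3, 4.45 and 10.5 RPM in S1, against 1.82, 1.41 and 2.62 RPM in N1 (log2 difference 1.61, SE 0.20, adjusted p 3.6e-06 by limma). Both were at like levels in the open flowers, with means of 44.8 RPM in S9 against 41.9 RPM in N5 for the first and 39.8 RPM in S9 against 39.4 RPM in N5 for the second.

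On day 3, when both types were green yellow buds, 0 of the 60 were called higher in S3 than in N3 and 3 (5%) lower, beside 7% and 5.16% of all genes. By limma a higher call was out of reach for the 31 with a mean below 1 RPM in S3. A lower call was out of reach for the 27 below 1 RPM in N3. At an unadjusted p under 0.05 by limma, 3 of the 60 were higher and 14 lower, beside 45.3% and 21.5%. On recovered reads edgeR called 1 higher and 12 lower, beside 8.16% and 9.02%. Csa3G101810 had 9.29, 10.5 and 12.1 RPM in S3, against 42, 39.2 and 39.9 RPM in N3 (log2 difference -1.84, SE 0.32, adjusted p 2.1e-05 by limma). Csa3G731130 had 3.05, 3.20 and 2.48 RPM in S3, against 8.75, 8.89 and 10.4 RPM in N3 (log2 difference -1.40, SE 0.36, adjusted p 0.0013 by limma). In the normal course both genes were back at lower means in N4, 12.4 and 2.95 RPM, before they reached 490 and 139 RPM in N5.

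On day 4 green yellow super buds were set against yellow normal buds. Here 5 of the 60 (8.33%) were called higher in S4 and 4 (6.67%) lower, beside 29.9% and 6.96% of all genes. By limma a higher call was out of reach for the 31 with a mean below 1 RPM in S4. A lower call was out of reach for the 27 below 1 RPM in N4. The median log2 difference was 0.18 in the 60, against 0.50 over all genes. After rescaling 3 were called higher and 6 lower, beside 14.9% and 15.2%, so that the larger side changed. Csa3G150150 had 7.88, 8.65 and 7.47 RPM in S4, against 0.97, 0.86 and 1.47 RPM in N4 (log2 difference 2.11, SE 0.14, adjusted p 1.4e-13 by limma). Csa1G072450 had 10.5, 12 and 12.9 RPM in S4, against 2.37, 2.42 and 2.53 RPM in N4 (log2 difference 1.89, SE 0.15, adjusted p 1e-11 by limma). Lower in S4 was Csa6G151640, with 0.19, 0.09 and 0.24 RPM in S4, against 1.73, 1.91 and 2.63 RPM in N4 (log2 difference -1.39, SE 0.13, adjusted p 9.5e-11 by limma). Csa3G748200 had 0.14, 0.18 and 0.18 RPM in S4, against 1.94, 1.41 and 2.08 RPM in N4 (log2 difference -1.26, SE 0.25, adjusted p 4.2e-05 by limma). This gene, much higher in S9 than in N5, was lower in green yellow super buds than in yellow normal buds of day 4. In yellow super buds its mean was 1.45 RPM in S7 and 3.34 RPM in S8, against 1.81 RPM in N4.

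Day 5 sets closed super buds against open normal flowers, a contrast that the choice of the genes nearly fixes. N5 stood 5.79 to 508 times above S5 in the 60 genes, with a median of 20.6. The summed RPM of the 60 was 440, 419 and 369 in the S5 libraries, against 6540, 6109 and 6570 in the N5 libraries of the same day. Over all 8 comparisons tested, 22 of the 60 genes were called in none, and 28 were called in none of the 7 bud comparisons. The same shares over all genes were not computed, so whether these counts are many or few is not known.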

How the data were processed

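Corolla RNA of 33 libraries, 3 per group, was sequenced by the study. Values were deposited by the authors as RPM. TopHat and HTSeq are named in the submitters' processing notes; the sources used here give no versions, genome build or annotation. No unlisted column was present. Low values were whole multiples of 1 step, which gave the reads behind each value: in the 30 libraries used for edgeR, 100% of values under 20 RPM were whole reads to within 0.25. A gene at the lowest step was assumed to have no read, with 1 read added. N5 replicate 2, S1 replicate 2 and S4 replicate 2 were left out of edgeR, because a stricter recovery from their lowest values alone gave whole reads for fewer than 95% of genes.

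Tests were made with limma 3.58.1 (R 4.3.3), after conversion to log2(RPM + 1), which understates changes of low genes. On this scale a gene with a mean below 1 RPM in a group cannot be called lower in the other group. All 33 libraries entered 1 fit of 11 group means with a mean-variance trend. Tests were two-sided, with Benjamini-Hochberg adjustment over the 18905 genes whose mean reached 1 RPM in any group. edgeR 4.0.16 (quasi-likelihood, TMM) was an alternative. It called 903 genes higher and 730 lower in S9 against N5. Replicates were distinct libraries: over genes with 20 reads or more per pair, chi-square divided by its degrees of freedom was 5.2 to 74.61, where sampling noise alone gives about 1. Samples were grouped by the type and day in their titles. The replicates are called biological in the design text, but separate plants or harvests are not stated, so p-values measure the spread between pools.

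The genes, comparisons and alternatives were chosen with earlier results of these data known. Genes are named by rank: the 2 highest at flowering, the 2 steepest, and the 2 largest called differences in each direction and comparison. Csa3G150150 at flowering, Csa3G760510, Csa3G101810 at its limit, Csa2G420990 and Csa2G151030 were added after their values were seen. Alternatives were other pseudocounts and filters, rescaling by the median of gene ratios, a fit of 2 groups, a replicate block, edgeR and leaving out each library.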

Additional observations from a re-analysis of the deposited data

How the results depend on the processing

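The 60 genes became 98 when earlier groups were allowed up to the flowering mean divided by 4 in both courses, and 38 when divided by 8 in both. Under rescaling there were 64, of which 56 were among the 60. Without replicate 1, 2 or 3 of every group the number ran from 58 to 65, and without S7 replicate 3, an alternative chosen after seeing the data, it was 60. The calls in S9 against N5 kept within 1.5 times of 12 under every setting tried, from 10 to 15 when single libraries were left out. Calls in buds depended on how low values were treated. With a pseudocount of 0.1 the calls were 5 in S1 against N1, 10 in S3 against N3, 24 in S4 against N4, 23 in N4 against N1, 29 in S8 against S7 and 13 in S7 against S5. By direction these calls were 4 higher and 1 lower in S1 against N1, beside 1.45% and 0.629% of all genes. In S3 against N3 they were 2 and 8, beside 11% and 6.61%. In S4 against N4 they were 16 and 8, beside 36.5% and 8.17%. In N4 against N1 they were 11 and 12, beside 10.5% and 38.1%. In S8 against S7 they were 28 and 1, beside 7.19% and 14.2%. In S7 against S5 they were 11 and 2, beside 4.37% and 13%. With a pseudocount of 5, 1 was called higher and 0 lower in S1 against N1, beside 0.397% and 0.0635%. The calls were 0 and 1 in S3 against N3, beside 3.21% and 3.53%. They were 2 and 0 in S4 against N4, beside 18.1% and 5.31%. They were 0 and 1 in N4 against N1, beside 6.97% and 22.5%. They were 4 and 0 in S8 against S7, beside 3.7% and 4.24%. They were 2 and 0 in S7 against S5, beside 2.06% and 3.3%. In S8 against S1 they were 12 and 0, beside 10.8% and 24.4%. By edgeR the calls in both directions were 13 in S3 against N3, 22 in N4 against N1 and 46 in S8 against S1. They were 35 in S8 against S7 and 16 in S7 against S5, and the shares of all genes for these comparisons are given above. In S4 against N4 edgeR called 8 higher and 15 lower, beside 21.2% and 16.2% of all genes. Rescaling gave 24 in S8 against S7. The pseudocount of 5 also took 9 of the differences of named genes in buds under 2-fold. The causes were not tested. Leaving out single libraries gave 11 to 18 calls in S8 against S7 and 7 to 10 in S7 against S5. With the replicate block the calls were 12 in S9 against N5 and 24 in S8 against S1, the same as without it. Equal replicate numbers did not pair the libraries, with correlations of deviations from -0.061 to -0.008 in S9 against N5, and in no comparison were all 3 above 0.1. The block changed the number of calls in none of the 8 comparisons. At 1 to 3 reads per library, values under about 0.2 RPM in the buds carry large counting error.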

Other observations

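The most variable steep riser among the open normal flowers was Csa2G420990. It had 15.1, 10.2 and 17 RPM in S9, a coefficient of variation of 24.9%, against 42.9, 16.2 and 8.31 RPM in N5, a coefficient of 80.7%. In S9 the most variable was Csa2G151030, at 55.3%, against 26.4% in N5. The S9 coefficient was the larger in 39 of the 60 genes, while it was the larger in 60.3% of the 11027 genes with at least 10 RPM in both groups. In cucumber gene models the digit after Csa gives the chromosome. On that reading 17 of the 60 genes (28.3%) lie on chromosome 3, against 20.9% of the genes tested, and 2 (3.3%) on chromosome 7, against 9.9%. These shares are given as a description, without a test.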
